A study of Danio rerio with 2 samples.

Results

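Aminoacyl-tRNA synthetase genes were examined as a family in single-cell RNA-sequencing of zebrafish heads. The members were all genes whose symbols follow the naming pattern of these enzymes (an amino acid letter followed by *ars*, plus *eprs*, *farsa*, *farsb* and *tarsl2*). This gave 36 of the 37423 annotated genes. Symbols that end in 2 denote mitochondrial enzymes, with the exception of the cytosolic *tarsl2*, so that 21 members were cytosolic and 15 mitochondrial. Membership was set by symbol alone, but the family was chosen with earlier results of these data known.

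Each synthetase joins an amino acid to its matching tRNA and so supplies the ribosome with charged tRNA. The cytosolic and the mitochondrial translation systems mostly use enzymes from separate nuclear genes, although in mammals the *KARS1* and *GARS1* genes each encode both forms. In mammals many cytosolic synthetase genes are also known targets of ATF4, the transcription factor of the integrated stress response (ISR), which is activated when tRNA charging or translation initiation is disturbed. RNA polymerase III (Pol III) makes the tRNAs on which the cytosolic enzymes act.

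The study compared *polr3a* sa907/sa907 mutant zebrafish with wild-type zebrafish at 3 dpf. The sa907 allele is a nonsense mutation in the gene for the largest Pol III subunit. For each genotype, 10 heads cut anterior to the pectoral fin were pooled, dissociated and captured in 1 library with 10x Genomics GEM-X 3′ chemistry, which counts each captured transcript once through a unique molecular identifier (UMI). With 1 library per genotype there is no replicate, genotype and library cannot be told apart, and no test between the libraries was made. All intervals below are exact 95% intervals. They cover counting error only or, for shares of cells, only the sampling of cells within a library.

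Filtering kept 23809 cells (112119555 UMIs) for the library labelled mutant. For the library labelled wild-type it kept 33296 cells (136169924 UMIs). The median depth was 3824 and 3216 UMIs per cell, so the cells of the library labelled mutant were deeper. Levels are therefore given as CPM, the counts of a gene scaled to a common total of UMIs, and compared as the log2 ratio of the library labelled mutant over the library labelled wild-type. Among the cells used, 233 barcodes occurred in both libraries. The transcript of *polr3a* itself was at 16.6 CPM in the library labelled mutant and 13.9 CPM in the library labelled wild-type (log2 ratio 0.25, 0.16 to 0.35). Thus *polr3a* was not reduced in these counts. The paper, by contrast, reports a significant decrease of *polr3a* mRNA by qRT-PCR in homozygous mutants of the same age. It predicts that the allele leads to some nonsense-mediated decay. The cause of this difference from the paper was not tested. Counts from the 3′ end do not read the mutated codon, and the genotype labels were not checked by *polr3a*. Per the paper, the fish were genotyped from fin clips before their heads were pooled. It also reports lower pre-tRNA levels in mutants of this age and less Polr3a protein at a later age.

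Transcripts of cytosolic synthetases were higher in the library labelled mutant, while those of the mitochondrial synthetases were near the level of the library labelled wild-type. The 21 cytosolic members summed to 1804 CPM in the library labelled mutant and 964.7 CPM in the library labelled wild-type (log2 ratio 0.90, 0.89 to 0.91). The 15 mitochondrial members summed to 135.5 and 125.4 CPM, a log2 ratio of 0.11 (0.08 to 0.14). Cytosolic UMIs were accordingly 13.3 times the mitochondrial UMIs in the library labelled mutant and 7.69 times in the library labelled wild-type. These sums count *kars* and *gars*, whose mammalian counterparts encode both forms, as cytosolic, and counts per gene do not separate the forms. Levels in the libraries labelled mutant and wild-type were 206 and 94.0 CPM for *kars* and 136 and 84.1 CPM for *gars*. The median log2 ratio was 0.92 over the cytosolic members and 0.11 over the 14 mitochondrial members with a mean of at least 1 CPM, against 0.07 over all 19285 genes with at least 1 CPM.

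All 21 cytosolic members had a CPM ratio above 1.2, the fold limit used in the study, and so did 3 of the 14 mitochondrial members. Among all genes 18.4% passed this limit. No member was below the lower limit of 0.8, which 5.04% of all genes passed. All 21 cytosolic intervals lay above 0, as did 44.4% of all genes. Of the mitochondrial members, 7 had an interval above 0, 6 an interval that included 0 and 1 an interval below 0, where 17.8% of all genes lay. A stricter ratio of 1.5 was passed by 19 members, all of them cytosolic, and by 3.86% of all genes.

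**Figure D1:**
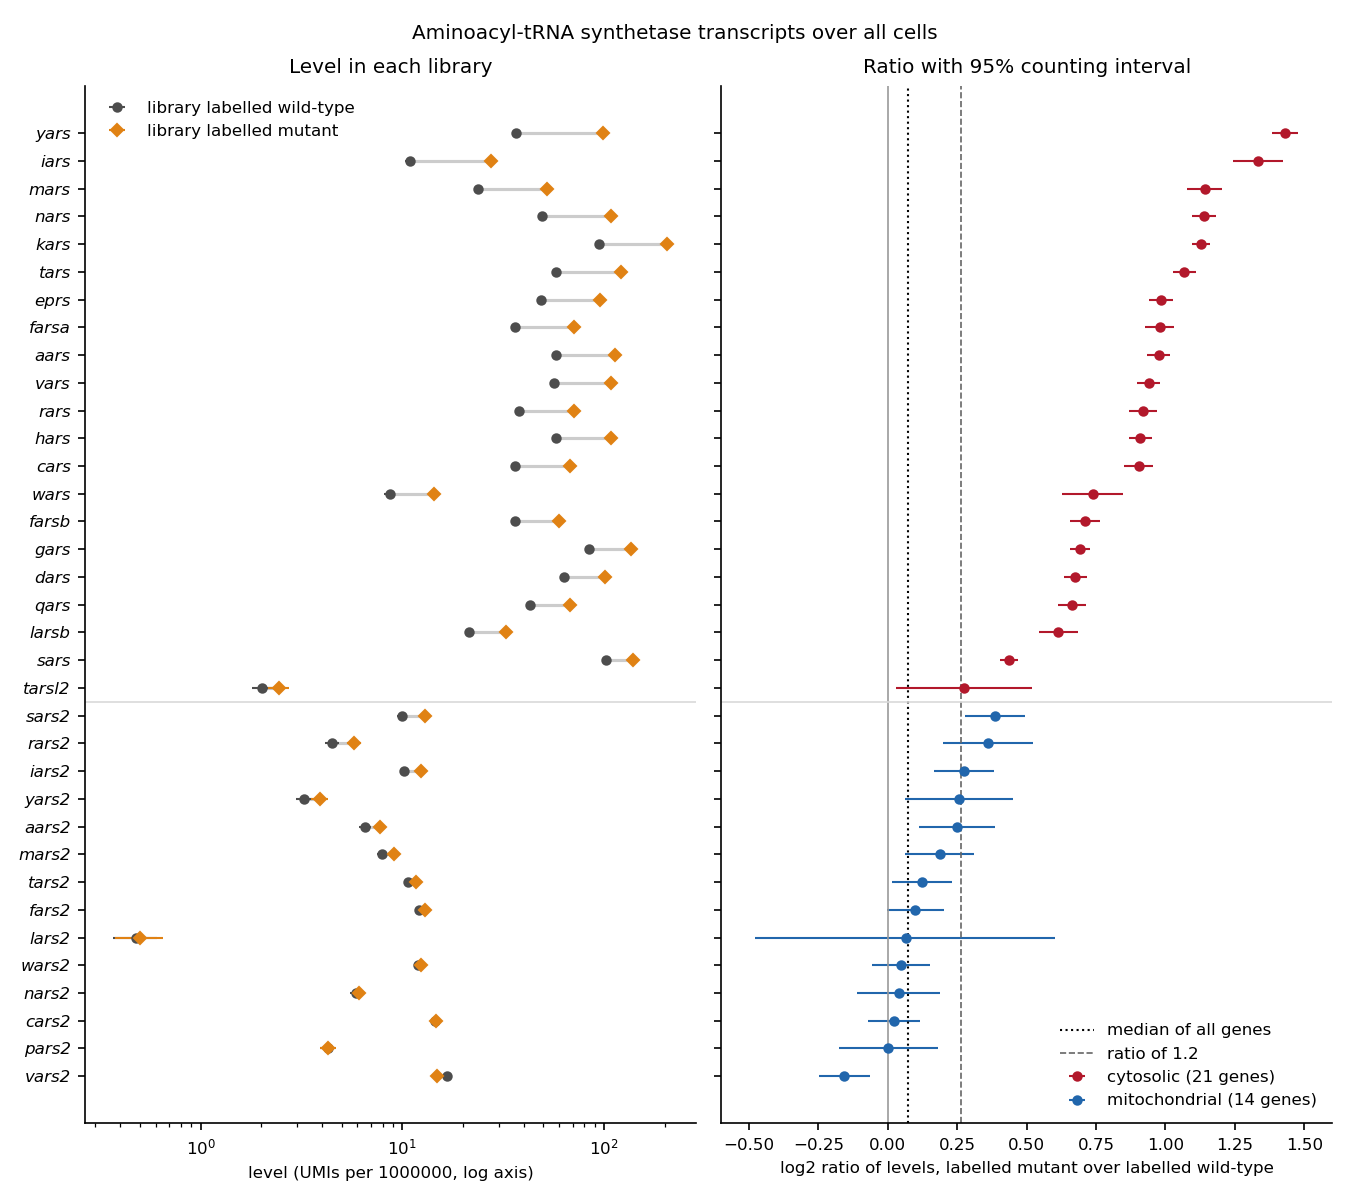
Levels of 35 synthetase transcripts over all cells in each library (left, CPM on a log axis) and the log2 ratio of the library labelled mutant over the library labelled wild-type (right), with bars for exact 95% counting intervals. The cytosolic genes lie to the right of the dashed line at a ratio of 1.2, from 0.28 for *tarsl2* to 1.43 for *yars*, while the mitochondrial genes lie between -0.16 for *vars2* and 0.39 for *sars2*.

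The largest ratio in the family was that of *yars*, the tyrosyl-tRNA synthetase gene, at 99.2 CPM in the library labelled mutant and 36.8 CPM in the library labelled wild-type (log2 ratio 1.43, 1.38 to 1.48). The isoleucyl-tRNA synthetase gene *iars* followed at 27.5 and 10.9 CPM (1.33, 1.24 to 1.42). Their intervals overlapped, and both lay above the interval of every other member. Next came *mars*, which encodes the methionyl-tRNA synthetase that also charges the initiator tRNA, at 52.2 and 23.7 CPM (1.14, 1.08 to 1.204). The asparaginyl gene *nars* was at 109 and 49.4 CPM (1.14, 1.097 to 1.18) and the lysyl gene *kars* at 206 and 94.0 CPM (1.13, 1.097 to 1.16). The ratios of these 3 genes were within counting error of each other. The threonyl gene *tars* was at 121 and 57.6 CPM (1.07, 1.03 to 1.11).

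Ratios close to a doubling were found for a second set of genes. The bifunctional glutamyl-prolyl gene *eprs* was at 96.0 CPM in the library labelled mutant and 48.6 CPM in the library labelled wild-type (0.98, 0.94 to 1.03). The alanyl gene *aars* was at 114 and 58.0 CPM (0.98, 0.94 to 1.02), and the valyl gene *vars* at 108 and 56.5 CPM (0.94, 0.90 to 0.98). For the arginyl gene *rars*, the histidyl gene *hars* and the cysteinyl gene *cars* the log2 ratios were 0.92, 0.91 and 0.90, and the intervals of these 6 genes overlapped.

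The phenylalanyl enzyme is built from an alpha subunit, encoded by *farsa*, and a beta subunit, encoded by *farsb*. In the library labelled wild-type both transcripts had nearly the same level, 36.1 CPM for *farsa* and 36.4 CPM for *farsb*. In the library labelled mutant they were at 71.2 and 59.5 CPM. The log2 ratio of *farsa* (0.98, 0.93 to 1.03) was larger than that of *farsb* (0.71, 0.66 to 0.76), beyond counting error.

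At the lower end of the cytosolic members, the tryptophanyl gene *wars* was at 14.4 CPM in the library labelled mutant and 8.65 CPM in the library labelled wild-type (0.74, 0.63 to 0.85). The glycyl gene *gars*, the aspartyl gene *dars*, the glutaminyl gene *qars* and the leucyl gene *larsb* had log2 ratios of 0.69, 0.68, 0.66 and 0.61. The seryl gene *sars*, which charges the tRNAs for serine and selenocysteine, was at 139 CPM in the library labelled mutant and 102 CPM in the library labelled wild-type (0.44, 0.40 to 0.47). Its ratio was below that of every other cytosolic member except *tarsl2*. The threonyl-like gene *tarsl2*, with 275 and 276 UMIs, was at 2.45 and 2.03 CPM (0.28, 0.03 to 0.52), so that its ratio was the least certain of the group. Over the 20 cytosolic members with at least 10 CPM, the ratio had no clear relation to the level in the library labelled wild-type (r = -0.22, rho = -0.20 across genes, which are not independent).

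Among the mitochondrial members, *sars2*, *rars2* and *iars2* passed the fold limit. The seryl gene *sars2* was at 12.99 CPM in the library labelled mutant and 9.93 CPM in the library labelled wild-type (0.39, 0.28 to 0.50). The arginyl gene *rars2* was at 5.79 and 4.51 CPM (0.36, 0.20 to 0.52), and the isoleucyl gene *iars2* at 12.4 and 10.3 CPM (0.27, 0.17 to 0.38). Next to the limit, *iars2* had a CPM ratio of 1.21 and the tyrosyl gene *yars2* one of 1.195 (log2 ratio 0.26, 0.06 to 0.45), a difference within counting error. The alanyl gene *aars2* (0.25), the methionyl gene *mars2* (0.19) and the threonyl gene *tars2* (0.12) also had intervals above 0.

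For the phenylalanyl gene *fars2* (0.10), *wars2* (0.05), *nars2* (0.04), *cars2* (0.02) and the prolyl gene *pars2* (0.00) the intervals included 0, and no difference was detectable at this depth. The valyl gene *vars2* was the only member with an interval below 0, at 14.95 CPM in the library labelled mutant and 16.7 CPM in the library labelled wild-type (-0.16, -0.25 to -0.07). The leucyl gene *lars2*, with 56 and 65 UMIs, was at 0.50 and 0.48 CPM and did not reach 1 CPM. It is counted in the sum but in no count of members past a limit.

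For 13 amino acids a cytosolic and a mitochondrial gene could be paired, with *farsa* standing for the phenylalanyl enzyme. The cytosolic ratio was the larger in 13 of 13 pairs, and in 12 of them the intervals were apart. The difference was greatest for tyrosine, where *yars* exceeded *yars2* by 1.17 on the log2 scale, and for asparagine (1.101) and valine (1.095). The exception was serine, where *sars* and *sars2* differed by 0.05 and their intervals overlapped. Serine thus had the second smallest cytosolic ratio of the family together with the largest mitochondrial ratio.

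The cytosolic members were also grouped by what is known of their mammalian counterparts. The 11 members matched by symbol to counterparts described as raised by ATF4 had a median log2 ratio of 0.98. They ranged from 0.44 for *sars* to 1.43 for *yars*. The other 10 had a median of 0.81 (0.28 for *tarsl2* to 1.13 for *kars*). These 10 include the leucyl gene *larsb* (0.61), whose counterpart is on the ATF4 list but was missed by the symbol match. The medians were not recomputed with *larsb* moved. Its ratio is below both medians, so moving it would narrow the gap between them. The ranges of these sets overlapped widely, and *kars* and *farsa*, which are outside the ATF4 list, each had a ratio above those of at least 5 of its members. The 7 members matched by symbol to the multi-synthetase complex (*eprs*, *iars*, *qars*, *mars*, *kars*, *rars* and *dars*) had a median of 0.98. The other 14 had a median of 0.91. Among these 14 was *larsb*, whose counterpart also sits in this complex and was missed in the same way. The structural class of the enzyme made little difference among cytosolic members, with medians of 0.93 for the 10 of class I and 0.91 for the 11 of class II. Among mitochondrial members they were 0.19 for 7 genes of class I and 0.10 for 7 of class II with at least 1 CPM.

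Proteins that work beside the synthetases gave smaller ratios. Of the scaffold proteins of the multi-synthetase complex, *aimp2* was at 123 and 87.7 CPM (0.49, 0.46 to 0.53) and *eef1e1* at 86.1 and 86.7 CPM (-0.01, -0.05 to 0.03). Another scaffold gene, *aimp1*, which was added after its symbol was found in the data, had a log2 ratio of 0.28 (0.24 to 0.32). Each of the 7 complex enzymes listed above therefore had a larger ratio than any of its measured scaffolds. Of the editing, selenocysteine-tRNA and peptidyl-tRNA enzymes, 2 of 6 passed 1.2, beside 18.4% of all genes. Among those with at least 10 CPM, the D-aminoacyl-tRNA deacylase gene *dtd1*, which clears mischarged tRNA, was at 41.9 and 25.2 CPM (0.73, 0.67 to 0.80), whereas *ptrh2* (0.12) and *aarsd1* (0.03) were near 0.

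Of 13 cytosolic elongation and tRNA export factors, 3 passed 1.2 and none was below 0.8, with a median of -0.08. Among all genes 18.4% passed 1.2, 5.04% were below 0.8 and 17.8% had an interval below 0. The tRNA exporter gene *xpot* was at 71.6 and 47.5 CPM (0.59, 0.54 to 0.64), the elongation factor paralogs *eef2l2* and *eef1a1a* had log2 ratios of 0.68 and 0.53, and 6 of the 13 factors had an interval below 0. Of 16 partners of mitochondrial charging and translation, 7 passed 1.2, with a median of 0.25. Of those with at least 10 CPM, the values farthest from 0 were those of *tsfm*, a mitochondrial elongation factor (14.75 and 11.1 CPM, log2 ratio 0.41), *mtfmt*, which formylates the mitochondrial initiator methionyl-tRNA (0.26), and *mto1*, a mitochondrial tRNA-modifying enzyme (0.09). The 74 mitochondrial ribosomal protein genes had a median of 0.07, with 3 past 1.2, of which *mrpl10* was farthest from 0 (0.38) and was followed by *mrpl9* (0.28) and *mrpl2* (0.27).

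Genes of the ISR and of amino acid synthesis and transport, many of them known ATF4 targets in mammals, had medians close to that of the cytosolic synthetases. Of 18 ISR genes, 17 passed 1.2, with a median of 1.01. Of 28 genes of amino acid synthesis and transport, 24 did, with a median of 1.03, beside 18.4% of all genes. The ISR transcription factor genes *atf4b* and *ddit3* had log2 ratios of 0.81 (0.79 to 0.82) and 0.95 (0.92 to 0.98), and the glutathione-degrading *chac1* had 1.08 (1.05 to 1.104). Among genes with at least 10 CPM, the values farthest from 0 were those of *atf5b* (3.00), *sesn2* (2.26), *atf5a* and *ddit4* (1.52 each) in the ISR list, and of the methionine adenosyltransferase gene *mat2ab* (2.01), the neutral amino acid transporter gene *slc1a4* (1.99) and asparagine synthetase *asns* (1.77) in the amino acid list. These lists were chosen with earlier results of these data known and are given as descriptions.

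To ask in which cells the synthetase transcripts differed, both libraries were clustered together. Of 24 clusters, 22 held at least 100 cells of each library, and 15 of these could be named after cell types from their marker genes. The other 7 are called by number and leading genes. The named types (among them cranial mesenchyme-like, cartilage-like, photoreceptor-like, radial glia-like and hair cell and ear-like cells) fit tissue from the head. Cytosolic synthetase transcripts were higher in the library labelled mutant in nearly all clusters, but by very different amounts. Their summed ratio was above 1.2 in 18 of 22 clusters, and its interval was above 0 in 21 and below 0 in 0. The summed mitochondrial ratio was above 1.2 in 3 clusters, its interval was above 0 in 7, and in the other 15 the interval included 0. The cytosolic ratio was larger than the mitochondrial one in 21 clusters, and in 14 of them their intervals were apart.

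**Figure D2:**
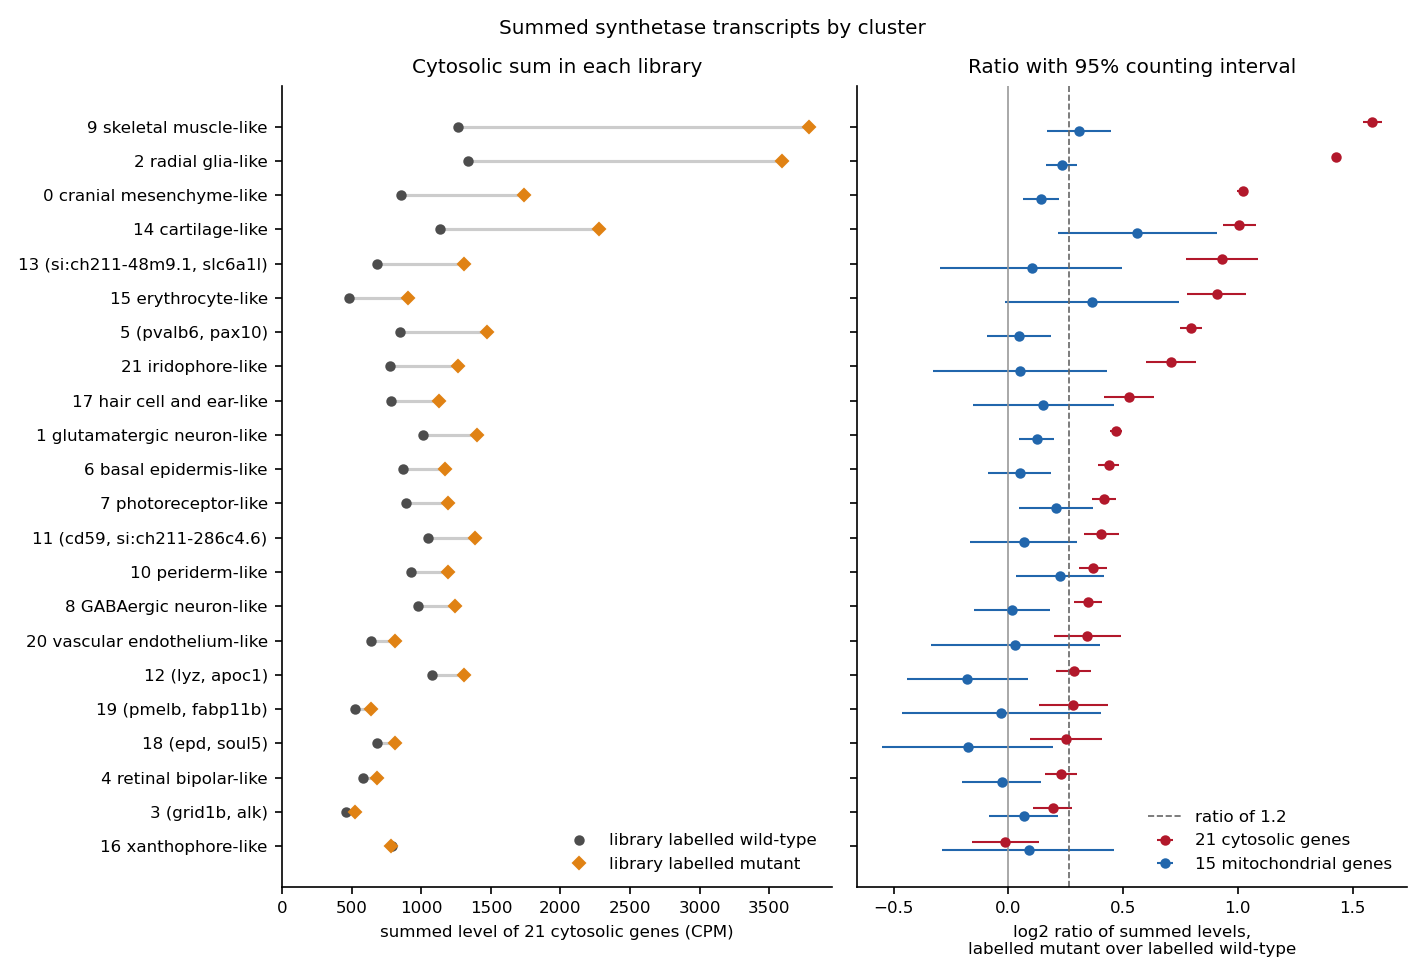
Summed CPM of the 21 cytosolic genes in each library (left) and log2 ratios of the cytosolic and mitochondrial sums (right, bars for exact 95% counting intervals) in 22 clusters, ordered by the cytosolic ratio. The levels of the library labelled wild-type lie between 455.4 and 1336 CPM and those of the library labelled mutant between 520.7 and 3786 CPM, with cluster 9 (skeletal muscle-like) and cluster 2 (radial glia-like) far above the rest.

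The skeletal muscle-like cells of cluster 9 had the largest cytosolic ratio. Their cytosolic members summed to 3786 CPM in the library labelled mutant and 1261 CPM in the library labelled wild-type (log2 ratio 1.59, 1.55 to 1.63). The radial glia-like cells of cluster 2, whose markers include *fabp7a* and *her4.2*, were at 3592 and 1336 CPM (1.43, 1.41 to 1.45). These clusters also had the highest cytosolic levels in the library labelled wild-type. Across the 22 clusters the ratio and the level in the library labelled wild-type had r = 0.45 and rho = 0.46, a loose relation, with clusters of similar level such as cluster 12 (1073 CPM) and cluster 14 (1131 CPM) at ratios of 0.28 and 1.01.

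A group of clusters at intermediate ratios followed. The cranial mesenchyme-like cells of cluster 0 were at 1736 and 855.7 CPM (1.02, 0.997 to 1.045), and the cartilage-like cells of cluster 14, which express *matn1* and *col2a1a*, were at 2274 and 1131 CPM (1.01, 0.94 to 1.08). Their ratios did not differ beyond counting error. The unnamed cluster 13, with *ompa* among its leading genes, had 0.93, the erythrocyte-like cluster 15 had 0.91, the unnamed cluster 5 (*rbpms2b*, *isl2b*, *pax10*) had 0.80 and the iridophore-like cluster 21 had 0.71. Below these lay the hair cell and ear-like cluster 17 (0.53), the glutamatergic neuron-like cluster 1 (0.47, 1398 and 1011 CPM), the basal epidermis-like cluster 6 (0.44), the photoreceptor-like cluster 7 (0.42), the unnamed cluster 11 with myelin genes (0.41), the periderm-like cluster 10 (0.37), the GABAergic neuron-like cluster 8 (0.35) and the vascular endothelium-like cluster 20 (0.34). From cluster 0 downward, the intervals of neighbours in this order overlapped. The named neuronal and epidermal clusters lay between 0.23 and 0.47. This range does not hold for neurons as a class. The unnamed cluster 5, with the retinal ganglion cell genes *rbpms2b* and *isl2b*, and cluster 13, with the olfactory neuron gene *ompa*, lay above it.

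At the low end, the ratio was 0.28 in clusters 12 (*lyz*, *apoc1*) and 19 (*rpe65a*, *dct*), 0.25 in cluster 18 (*epd*), 0.23 in the retinal bipolar-like cluster 4 and 0.19 in cluster 3 (*grid1b*, *alk*), whose cells had the lowest median depth (1707 UMIs in the library labelled mutant). In the xanthophore-like cluster 16 the cytosolic members summed to 780.3 and 787.4 CPM (-0.01, -0.16 to 0.13), and no difference was detectable with 222 and 294 cells. This value moved with the choice of cells. It was -0.22 (-0.39 to -0.05) after a further 10% of cells with high doublet scores were left out. It was 0.18 (0.02 to 0.34) in a finer clustering, in which 44 of the cells of the library labelled wild-type, and 0 of the library labelled mutant, left this cluster for a radial glia-like one. In the bipolar-like cluster the ratio fell to -0.02 (-0.16 to 0.12) when each cell was thinned to 1000 UMIs, and in cluster 18 it was then 0.63 (0.29 to 0.96). In cluster 17 it was then 0.26 (-0.03 to 0.56) and in cluster 19 it was 0.35 (-0.04 to 0.75), so that clusters 4, 17 and 19 no longer had an interval above 0.

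No member was among the 3000 variable genes that placed the cells in clusters. Within the clusters that had the largest ratios, the whole cytosolic set was higher. All 20 cytosolic members with at least 10 CPM passed 1.2 in cluster 9 and in cluster 2, where 29.0% and 24.6% of all genes did, as did 19 of 19 in cluster 0, against 12.8% of genes. The same was true of 20 of 20 members in cluster 14 (37.6% of genes) and in cluster 5 (17.8%). In cluster 16, by contrast, 6 of 19 members passed, with 24.8% of genes. In cluster 3 it was 6 of 17, with 13% of genes, and in cluster 4 it was 7 of 17, with 15.5% of genes. Between these lay 18 of 20 members in cluster 1 (14.6%), 14 of 19 in cluster 6 (13.4%), 16 of 20 in cluster 7 (18.3%), 13 of 20 in cluster 8 (24.7%), 14 of 19 in cluster 10 (25.4%), 15 of 19 in cluster 11 (24.0%) and 11 of 20 in cluster 12 (26.8%). The counts were 18 of 19 in cluster 13 (31.5%) and in cluster 15 (34.1%), 16 of 19 in cluster 17 (26.9%) and in cluster 21 (27.6%), 8 of 18 in cluster 18 (27.2%), 10 of 17 in cluster 19 (28.4%) and 14 of 19 in cluster 20 (25.8%). In every one of the 22 clusters the members' share was above that of all genes, with cluster 16 the closest to it.

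**Figure D3:**
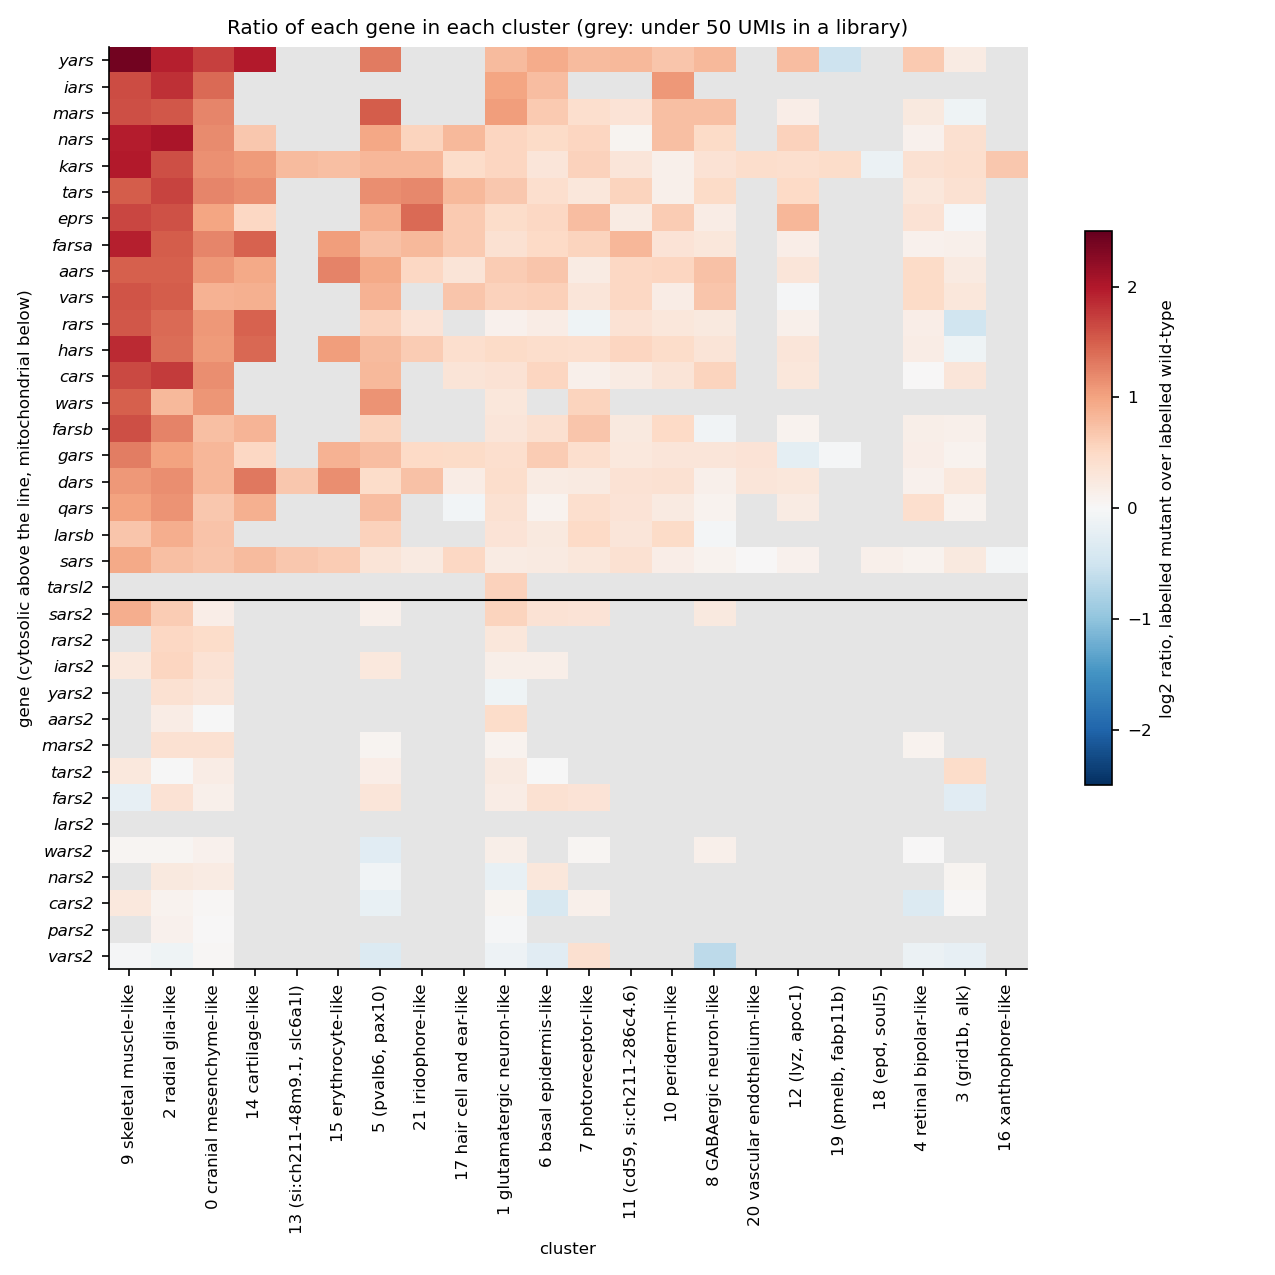
Log2 ratio of 35 synthetase genes in each of 22 clusters (red, higher in the library labelled mutant; blue, lower), with genes in the order of their ratio over all cells and clusters in the order of the cytosolic sum. Cells of the grid with under 50 UMIs in either library are grey. The colour falls from left to right in the cytosolic rows and stays pale in the mitochondrial rows, where *sars2* in cluster 9 (0.90) is the highest value.

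The gene *yars* was the member that stood out most often. Among the 17 clusters in which at least 6 members had 50 UMIs or more in each library, *yars* could be assessed in 14 and was among the 3 largest ratios in 12. In the skeletal muscle-like cells it was at 226 CPM in the library labelled mutant and 42.8 CPM in the library labelled wild-type (2.40, 2.19 to 2.62), the largest ratio of any member in any cluster. In the radial glia-like cells it was at 206 and 54.0 CPM (1.93, 1.84 to 2.03), and in the cartilage-like cells at 142 and 35.8 CPM (1.99, 1.61 to 2.39). Its level in the library labelled wild-type thus lay between 35.8 and 54.0 CPM in these cell types.

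In the skeletal muscle-like cells *kars* and *nars* followed *yars*. The level of *kars* was 590 CPM in the library labelled mutant and 149 CPM in the library labelled wild-type (1.99, 1.87 to 2.104), the highest level of *kars* in any cluster of the library labelled mutant. The level of *nars* was 239 and 61.4 CPM (1.96, 1.78 to 2.14). The smallest ratios there, among members with at least 50 UMIs in each library, were mitochondrial. They were those of *fars2* (-0.21), *vars2* (-0.03) and *wars2* (0.06), with intervals that included 0.

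In the radial glia-like cells the asparaginyl gene *nars* came first, at 234 CPM in the library labelled mutant and 57.1 CPM in the library labelled wild-type (2.04, 1.95 to 2.12), and *iars* came after *yars*, at 63.3 and 17.8 CPM (1.83, 1.67 to 1.99). The cranial mesenchyme-like cells were led by *yars* (101 and 31.1 CPM, 1.71), *iars* (1.42) and *farsa* (1.23). Among members with at least 50 UMIs in each library, *rars* and *farsa* followed *yars* in the cartilage-like cells, each with 1.47. Both *iars* (1.695, 0.90 to 2.58) and *mars* (1.55, 1.03 to 2.09) had larger ratios than *rars* and *farsa*. They missed the minimum in the library labelled wild-type, with 16 and 39 UMIs. The smallest ratios among the assessed members were those of *gars* (217 and 151 CPM, 0.52), *eprs* (0.52) and *nars* (0.68). The gene *nars* therefore lay at opposite ends of the order in radial glia-like and cartilage-like cells. Its intervals in these clusters, 1.95 to 2.12 and 0.36 to 1.001, were apart.

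The order of the cytosolic members was otherwise similar between the clusters with large ratios. Over 20 members, the ratios in clusters 2 and 9 had r = 0.77 and rho = 0.79, those in clusters 0 and 9 had r = 0.81 and rho = 0.68, and those in clusters 1 and 2 had r = 0.59 and rho = 0.67. Over the 15 members that could be assessed in both clusters 2 and 14, r was 0.31 and rho 0.27. These points share libraries and depth, and are given as a description.

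Leading members in other clusters, among those with at least 50 UMIs in each library, were partly those that led over all cells. Intervals of the leading member and the next overlapped in cluster 5 and in glutamatergic neuron-like, erythrocyte-like and iridophore-like cells. Their order was therefore not resolved. In the unnamed cluster 5 the methionyl gene *mars* was at 40.9 CPM in the library labelled mutant and 14.4 CPM in the library labelled wild-type (1.51, 1.16 to 1.86). The ratio of *iars* was larger there (1.62, 1.07 to 2.205), but from only 37 UMIs in the library labelled wild-type. In the glutamatergic neuron-like cells *mars* also led (34.6 and 16.9 CPM, 1.04), followed by *iars* (0.98) and *yars* (0.79). Only 7 members reached the minimum in the erythrocyte-like cells, where *aars* (81.5 and 34.5 CPM, 1.24) and *dars* (1.16) led these 7. Larger ratios below the minimum there included *mars* (1.54, 35 and 17 UMIs), *tars* (1.435, 88 and 46 UMIs) and *yars* (1.265, 51 and 30 UMIs). The iridophore-like cells were led by *eprs* (118 and 44.4 CPM, 1.41) and *tars* (1.196). The ratio of *kars* could be assessed in all 22 clusters. It was highest in cluster 9 and lowest, at -0.14 (-0.64 to 0.35), in cluster 18, and its interval was above 0 in 18 clusters. The ratio of *sars* could be assessed in 21 clusters and lay between -0.06 in cluster 16 and 0.95 in cluster 9, with an interval above 0 in 12.

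Log2 ratios of cytosolic members with at least 10 CPM were mostly above 0, except in a few clusters with a low summed ratio. In cluster 16, 8 of 19 were above 0, in cluster 18 it was 12 of 18, and in clusters 3 and 19 it was 13 of 17 each. The median log2 ratio over all genes was -0.111 in cluster 16, 0.001 in cluster 18, 0.013 in cluster 3 and 0.041 in cluster 19. The median gene of cluster 16 thus also lay below 0. The share of all genes above 0 was not counted by cluster. The arginyl gene *rars* in cluster 3 was at 15.8 CPM in the library labelled mutant and 22.3 CPM in the library labelled wild-type (-0.50, -0.95 to -0.06), from 69 and 113 UMIs. The other cytosolic interval below 0 was that of the glycyl gene *gars* in cluster 16, at 32.0 and 61.5 CPM (-0.94, -1.63 to -0.29), from 28 and 68 UMIs. It falls below the minimum of 50 UMIs in each library, which can drop a member because it is low in a library, and was named after its value was seen. The tyrosyl gene *yars* was at 37.0 and 53.1 CPM in cluster 19 (-0.52, -1.08 to 0.04), an interval that included 0.

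The mitochondrial sum was above 1.2 in the cartilage-like, erythrocyte-like and skeletal muscle-like clusters. In the cartilage-like cells it was 85.5 CPM in the library labelled mutant and 58.0 CPM in the library labelled wild-type (0.56, 0.22 to 0.91), the lowest level of the library labelled wild-type in any cluster. In the skeletal muscle-like cells it was 188 and 151.5 CPM (0.31, 0.17 to 0.45), and in the erythrocyte-like cells 86.9 and 67.4 CPM (0.37, -0.01 to 0.74). The difference between the cytosolic and the mitochondrial ratio was 1.28 in cluster 9 and 1.195 in cluster 2, but 0.45 in cluster 14, where the lower bound of the cytosolic ratio was 0.94 and the upper bound of the mitochondrial ratio 0.91. Single mitochondrial members were mostly too sparse to compare by cluster. Of those that could be assessed, *vars2* was among the 3 smallest ratios in 8 of 10 clusters and had an interval below 0 in the GABAergic neuron-like cluster 8 (16.8 and 26.6 CPM, -0.66, -1.15 to -0.20).

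A finer clustering showed that the broad clusters were not uniform. The radial glia-like cluster was divided into cells led by the proneural and Notch pathway genes *atoh1c*, *her2* and *ascl1b*, cells with the retinal progenitor genes *atoh7* and *foxn4* and the lens crystallin genes *crybb1* and *crygmx* among their leading genes, and cells led by the astroglial transporter genes *slc6a11b* and *slc1a2b*. The cytosolic sums were 4266 and 1485 CPM in the *atoh1c* group (1.52), 4516 and 1492 CPM in the *atoh7* group (1.598), and 1748 and 848.9 CPM in the *slc6a11b* group (1.04). The *atoh1c* and *atoh7* groups thus had the higher level in both libraries and the larger ratio.

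The cranial mesenchyme-like cluster was divided in a similar way. Cells led by the skeletal genes *col10a1a* and *ifitm5* were at 2376 CPM in the library labelled mutant and 965.3 CPM in the library labelled wild-type (interval of the log2 ratio 1.27 to 1.33). Cells led by *scinla* and *tnmd*, a tendon gene, were at 1452 and 897.1 CPM (0.70), and cells led by *admb* and *htra3b* at 713.6 and 572.3 CPM (0.32). The ratio over the whole cluster was therefore an average over groups whose intervals were apart.

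The photoreceptor-like cluster separated into cells led by rod genes (*rho*, *sagb* and *gnat1*) and cells led by cone opsin genes (*opn1sw1* and *opn1mw1*). The cytosolic members summed to 1706 and 1103 CPM in the rod group (0.63, 0.56 to 0.70) and to 818.4 and 753.3 CPM in the cone group (0.12, 0.04 to 0.20). Within the glutamatergic neuron-like cells, a group led by *dbx1a*, *her13* and *dlb*, of which 80.7% of cells came from this cluster, was at 1931 and 1040 CPM (0.89), whereas the main group, led by *neurod6b* and *otpa*, was at 1312 and 987.5 CPM (0.41). These finer groups were described after their values were seen.

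Because cytosolic synthetase genes are known ATF4 targets in mammals, the cluster ratios were set beside the ratio of *atf4b*, one of the *atf4* paralogs of the zebrafish. Over the 22 clusters the ratio of *atf4b* and of the cytosolic sum had r = 0.94 and rho = 0.92, and r = 0.89 without the 2 clusters farthest from the median. For the mitochondrial sum r was 0.62 and rho 0.57. The clusters share their libraries and differ in depth, so that these values are a description. In cluster 9 both ratios were large (*atf4b* 1.57), and in cluster 16 both were near 0 (*atf4b* 0.00). The retinal bipolar-like cluster 4 stood apart with a ratio of *atf4b* below 0 (-0.11, -0.17 to -0.04) beside a cytosolic ratio of 0.23. For *ddit3* and *chac1*, r with the cytosolic ratio was 0.80 and 0.79, and 0.57 and 0.53 without the 2 farthest clusters. The ratio of the median UMIs per cell in both libraries had r = 0.30 with the cytosolic ratio, and 0.55 without the 2 farthest clusters, and its part in the result was not tested.

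**Figure D4:**
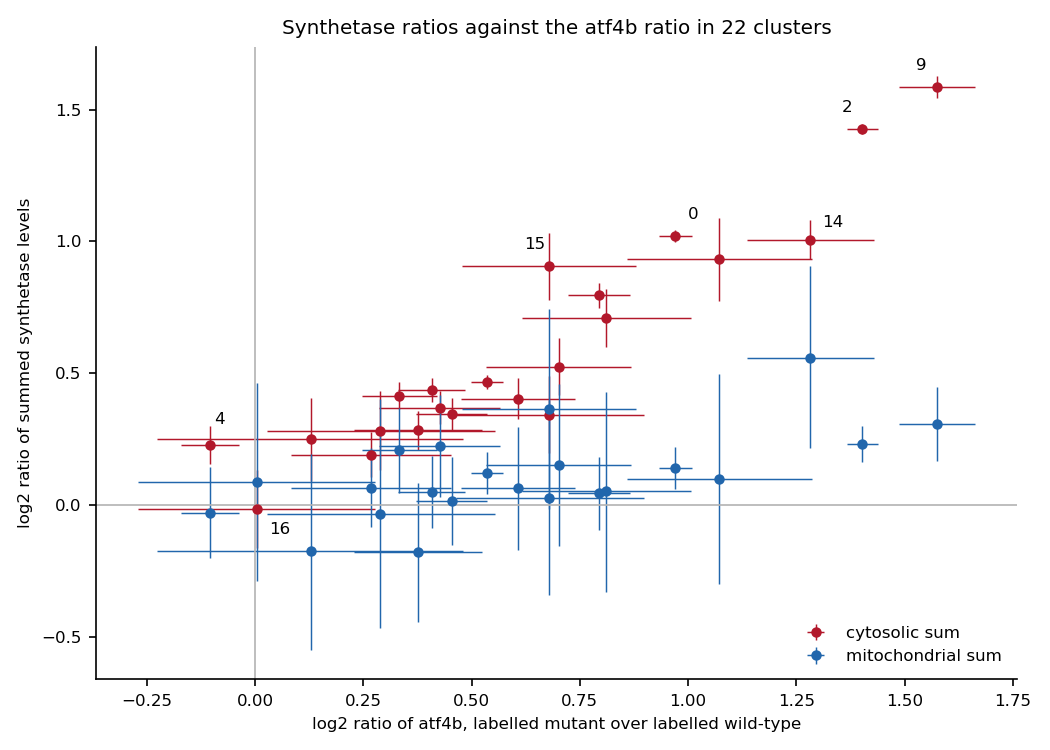
Log2 ratio of the summed cytosolic and mitochondrial synthetase levels against the log2 ratio of *atf4b* in 22 clusters (library labelled mutant over library labelled wild-type), with bars for exact 95% counting intervals and some cluster numbers beside the cytosolic points. The cytosolic points rise with *atf4b* from cluster 16 (-0.01) to cluster 9 (1.59), while the mitochondrial points stay between -0.18 and 0.56.

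Finally, the spread over single cells was examined after each cell had been thinned to 1000 UMIs, with 1726 and 2705 shallower cells dropped from the libraries labelled mutant and wild-type. A cell of the library labelled mutant held on average 1.53 cytosolic synthetase UMIs, and a cell of the library labelled wild-type 0.88. The share of cells with 5 or more was 8.47% (8.10% to 8.84%) and 0.834% (0.735% to 0.942%), by exact Clopper-Pearson intervals. These intervals cover only the sampling of cells within a library. Cells are not replicates of a genotype, so the intervals do not measure a difference between genotypes. Without thinning, the means were 8.497 and 3.945 UMIs, and 42.7% and 29.3% of cells held 5 or more. No cell type is known to lack these enzymes, and the part of free RNA in these counts was not tested. The mean of the mitochondrial members was 0.139 and 0.131 UMIs per cell.

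In the skeletal muscle-like cells the mean was 3.45 and 1.13 cytosolic UMIs per thinned cell, and 33.6% and 1.76% of cells held 5 or more. In the radial glia-like cells the means were 3.27 and 1.24, and 29.2% and 2.47% held 5 or more. Without thinning, 76.4% and 47.1% of the muscle-like cells and 65.3% and 44.0% of the radial glia-like cells did. Of the muscle-like cells of the library labelled mutant 14.6% held none, and 0.873% held 12 or more. In the cranial mesenchyme-like cells the means were 1.40 and 0.783, and in the xanthophore-like cells 0.796 and 0.781.

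**Figure D5:**
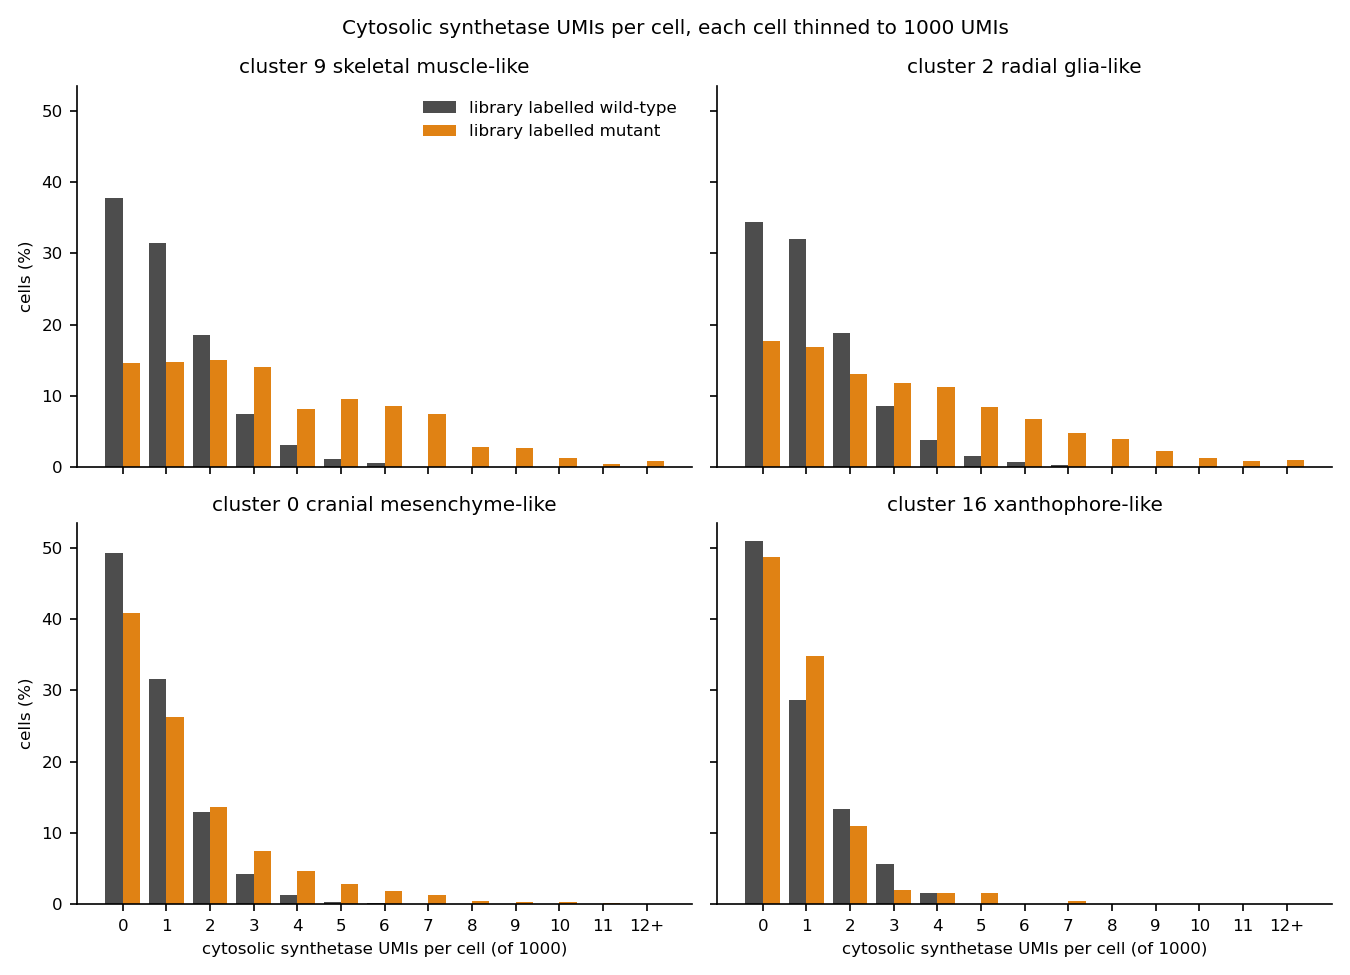
Distribution of cytosolic synthetase UMIs per cell, with each cell thinned to 1000 UMIs, in 4 clusters. Bars give the percent of cells of each library. In clusters 9 and 2 the cells of the library labelled mutant spread to 12 UMIs or more while those of the library labelled wild-type seldom pass 5 (1.76% and 2.47% hold 5 or more), and in cluster 16 the means are 0.796 and 0.781.

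The levels of the library labelled wild-type also differed between clusters. Its cytosolic sum had a median of 852 CPM over the 22 clusters and was lowest in cluster 3 and the erythrocyte-like cluster 15, at 455.4 and 480.9 CPM. Its mitochondrial sum had a median of 115 CPM, with the lowest level in the cartilage-like cells. Cluster 3 was at 154 CPM, close to cluster 9 (151.5 CPM) and cluster 2 (151 CPM), and these levels were not told apart. Cluster 3 was thus lowest in cytosolic and among the highest in mitochondrial synthetase transcripts. It had 2.96 cytosolic UMIs per mitochondrial UMI, against 19.5 in the cartilage-like cells. Of its 778 mitochondrial UMIs, 216 were from *fars2*. Cluster 3 could not be named from markers and had the lowest median depth in this library (1486.5 UMIs per cell). Whether its levels reflect a cell type was not tested. Single members differed between clusters as well. The glycyl gene *gars* was at 151 CPM in the cartilage-like cells of the library labelled wild-type, with 114 CPM in the next cluster, and at 33.0 CPM in cluster 3. The phenylalanyl gene *fars2* was at 42.7 CPM in cluster 3 and at 27.0 CPM in the next cluster. These members were named after their values were seen.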

How the data were processed

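Per the labels and methods, the authors aligned single-cell RNA-seq reads with Cell Ranger (build GRCz11) and deposited 1 matrix of UMI counts per library. The matrix header names version 8.0.0, while the paper's methods name an earlier version. Cells with 500 to 20000 UMIs, 500 to 5000 genes, a novelty from 0.8 and a mitochondrial share up to 20% were kept (26454 and 36996 of 32228 and 43611 barcodes), and the 10% with the highest simulated-doublet scores were removed per library, which replaces the doublet step of the study. UMIs were summed per library and converted to CPM. Ratios carry exact conditional binomial 95% intervals. They were run on counts simulated with counting error only, where their coverage holds by construction. This run does not test spread between cells or libraries. Clusters came from Seurat 5.3.0 (R 4.3.3; 3000 variable genes, 30 components, 20 neighbours, resolution 0.2, finer 0.6). Other steps used Python 3.11.15, numpy 2.4.6, scipy 1.17.1 and pandas 2.3.3. Limits were ratios of 1.2 and 0.8 and a mean of 1 CPM, or 10 CPM within clusters. Members are named over all cells, except 1 that is counted in sums and counts and is not reported here by itself. Within clusters the 3 largest and 3 smallest ratios with at least 50 UMIs in each library are named, and from other lists the 3 genes farthest from 0 with at least 10 CPM. Members below this minimum of 50 UMIs are named with their UMIs, after their values were seen. Members and lists were chosen with earlier results of these data known. Alternatives covered doublets, filters, thinning, scaling, limits and resolution.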

Additional observations from a re-analysis of the deposited data

Results flagged for a closer look

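The arginyl-tRNA synthetase gene *rars* had a log2 ratio of -0.501 in cluster 3, while its ratio in other clusters reached 1.55 in the skeletal muscle-like cells. The difference between clusters was not tested, since each genotype has 1 library.

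The barcodes that the cell filters left out also held synthetase transcripts. Their cytosolic members summed to 1477 CPM in the library labelled mutant and 791.4 CPM in the library labelled wild-type (log2 ratio 0.90, 0.89 to 0.92 for counting error), and their mitochondrial members had a log2 ratio of 0.13 (0.09 to 0.18).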

How the results depend on the processing

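The cytosolic median of 0.92 was 0.773 with cells thinned to 1000 UMIs, 0.856 with libraries scaled to a median log2 ratio of 0, 0.815 with equal weight per cell and 0.249 on the log2 scale of the depth-scaled mean per cell plus 1, which shrinks ratios of low values by construction. The difference between the cytosolic and mitochondrial medians, 0.81, was 0.679 when thinned and 0.244 on the plus 1 scale. On that scale 10 members passed the limit in place of 24. A ratio of 1.5 was passed by the cytosolic sum in 8 clusters in place of 18. Under the other alternatives 19 to 25 members and 16 to 21 clusters passed 1.2 (or 1.5 for the 19), and 26 of 32 clusters did at the finer resolution. Neither median, nor their difference, changed sign under any alternative run. Single cluster ratios did: cluster 4 went from 0.23 to -0.02 when thinned, and cluster 16 from -0.01 to 0.03 when thinned and to 0.18 at the finer resolution. With the cell numbers of the study, an alternative chosen after seeing the data, the medians were 0.882 and 0.11. No paired analysis was possible because each genotype has 1 library, and for the same reason no replicate could be left out. Depth limited single mitochondrial members and small clusters.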
